A study of Homo sapiens with 8 samples.

Results

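The genes described here form the amino acid response that the transcription factor ATF4 directs, followed in OCI-AML5, a long-cultured cell line from human acute myeloid leukemia. The 37 listed genes were chosen by name, as enzymes of amino acid synthesis, amino acid transporters, cytosolic tRNA synthetases and known stress targets of ATF4. Of these, 36 had a row among the 23562 rows of the count table, and NUPR1 was not analysed here. All 36 passed the filter on low counts, so 36 of the 13838 genes tested with 8 libraries were members. Gene counts from polyadenylated RNA were compared between 4 sgCEBPD libraries, from cells given a lentiCRISPRv2 vector with a guide against CEBPD, and 4 sgControl libraries, from cells given the same vector with a non-specific guide. The vector carries both Cas9 and the guide. Each library held a different guide, no label says whether cells were cloned or how long they grew after transduction, and p-values therefore measure only the spread between these libraries. Library totals lay between 10217751 and 11521209 counts.

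When amino acids run short or unfolded proteins build up, stress kinases phosphorylate the translation factor eIF2, most protein synthesis slows, and ATF4 messenger RNA is translated more. ATF4 then binds C/EBP-ATF response elements as a pair with another leucine zipper protein, often of the C/EBP family to which CEBPD belongs. Its targets make amino acids, carry them across the membrane and load them onto tRNA, and some of them slow growth through mTORC1. Because ATF4 is controlled mainly at translation, its transcript level does not measure the protein.

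Promoters of the members often held the core of that element. RefSeq windows of GRCh38.p14, from 250 bases before to 50 after each annotated start, were found for 29 of the 37 genes and searched on both strands for TGATGNAA. It occurred in 14 of 29 members (48.3%), against 4.46% of 27305 genes with a window. The narrower core TGATGCAA, which every TGATGNAA search also finds, occurred in 10 members (34.5%), against 1.08% of all genes. Counted by window, since 13 members had several, TGATGNAA was in 29.8% of 47 member windows and in 3.62% of 35116 windows. By role, it was found in 7 of 10 synthetases, 4 of 6 transporters, 1 of 5 synthesis enzymes, 1 of 5 stress targets and 1 of 3 regulators. Matches are a description of letters and do not show binding. The members were chosen by name as genes of the ATF4 response, so their share is not a test of the list.

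The stretches below are printed because they cover the 3 members that passed a test (CHAC1, SLC1A5, AARS1), a pair of synthetases that were high in sgCEBPD 3 (TARS1, CARS1), a pair with the same core and flat levels in the other libraries (IARS1, NARS1), and ASNS, whose element is the classical example. Each runs 5′ to 3′ on the gene's strand, and capitals mark the match, which reads TTGCATCA where the core lies on the opposite strand.
CHAC1 (chr15:40953251-40953280, plus strand): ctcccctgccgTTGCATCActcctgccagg
SLC1A5 (chr19:46784893-46784922, minus strand): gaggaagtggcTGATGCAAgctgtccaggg
AARS1 (chr16:70289675-70289704, minus strand): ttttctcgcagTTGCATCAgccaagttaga
TARS1 (chr5:33440956-33440985, plus strand): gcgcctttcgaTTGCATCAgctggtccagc
CARS1 (chr11:3057407-3057436, minus strand): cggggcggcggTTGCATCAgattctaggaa
IARS1 (chr9:92293692-92293721, minus strand): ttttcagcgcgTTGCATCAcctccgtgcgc
NARS1 (chr18:57621804-57621833, minus strand): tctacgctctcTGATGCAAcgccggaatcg
ASNS (chr7:97872458-97872487, minus strand): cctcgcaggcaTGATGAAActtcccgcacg

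In CHAC1 and AARS1 the match began 209 and 187 bases before the start, and in SLC1A5 it began 97 bases before a start that is 1 of 3 listed for that gene. In IARS1, CARS1, TARS1 and NARS1 it lay within 14 bases of the start.

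**Figure D1:**
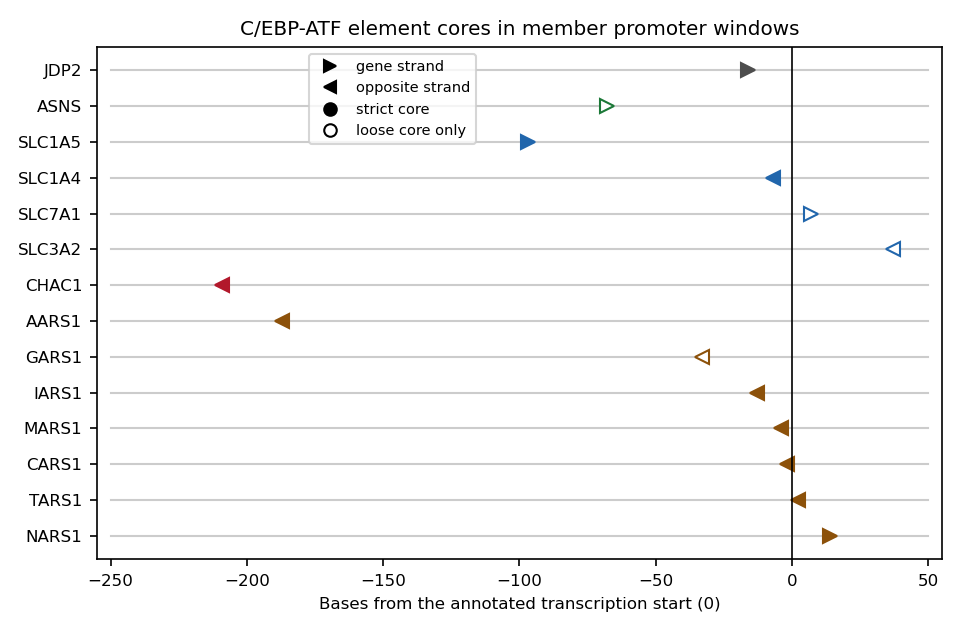
Position of each TGATGNAA match in the promoter windows of the 14 members that hold one, in bases from the annotated start (x axis); arrows point with the strand, filled arrows are TGATGCAA and open arrows are other TGATGNAA matches. Most synthetase matches lie within 33 bases of the start, while those of CHAC1 and AARS1 lie 209 and 187 bases before it.

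CEBPD, the targeted gene, was at 106.7, 209 and 164 CPM (read counts scaled to library size with TMM factors) in sgCEBPD 1, 2 and 4 and at 195 CPM in sgCEBPD 3, against 216, 204, 205 and 202 CPM in the controls. Its log2 fold change over 8 libraries was -0.29 (SE 0.18, adjusted p = 0.551 in edgeR's quasi-likelihood test). Cas9 cuts can spare the RNA while changing the protein, and the transcript therefore does not check the guides.

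The library sgCEBPD 3 stood apart from the rest and is given apart throughout. The comparison without it was made because earlier results of these data had shown this. The p-values of that comparison therefore follow a choice made from the same data. Log2 CPM of sgCEBPD 3 correlated across genes at 0.930 to 0.940 with the other sgCEBPD libraries, against 0.984 to 0.989 among those 3. Of 9 fixed monocyte and macrophage markers 8 had rows, and their summed level was 1029 CPM in sgCEBPD 3, 535 to 691 CPM in sgCEBPD 1, 2 and 4 and 548 to 590.3 CPM in controls. The 2 T cell markers with rows (of 4), CD3D and TRAC, summed to 80.5 CPM in sgCEBPD 3, 0.842 to 2.33 CPM in the other sgCEBPD libraries and 0.700 to 1.56 CPM in controls. The 7 myeloid blast markers summed to 591 CPM in sgCEBPD 3, 527 to 564 CPM in sgCEBPD 1, 2 and 4 and 568 to 648 CPM in controls. Most of that sum was SPI1, at 433 CPM in sgCEBPD 3, 310.2 to 329 CPM in sgCEBPD 1, 2 and 4 and 297 to 319 CPM in controls. Within the same list, CD34 was at 7.86 CPM in sgCEBPD 3, 29.9 to 67.5 CPM in sgCEBPD 1, 2 and 4 and 13.4 to 104 CPM in controls, and KIT was at 2.46 CPM in sgCEBPD 3, 18.1 to 26.1 CPM in sgCEBPD 1, 2 and 4 and 23.6 to 51.9 CPM in controls. ANPEP, which many such blasts carry, was at 0 to 0.473 CPM in all 8. Of 3 B cell genes 2 had rows, with sums of 4.52 CPM in sgCEBPD 3, 2.08 to 3.71 CPM in sgCEBPD 1, 2 and 4 and 5.60 to 6.03 CPM in controls. The epithelial and fibroblast genes summed to at most 1.30 CPM. Some markers also differed without sgCEBPD 3. In edgeR, CD33 and CD79A were lower in sgCEBPD (log2 fold change -0.35 and -1.39, adjusted p = 0.0199 and 0.0149). TYROBP was higher (1.27, adjusted p = 0.0269). The other tested markers did not pass, and with 8 libraries no tested marker passed. The part of these cell markers in the results below was not tested, and in bulk RNA fewer cells of a type and less RNA per cell cannot be told apart.

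The members as a whole were slightly higher in sgCEBPD libraries, and this was a matter of many small differences. Each library's members were set against the control mean as log2 ratios of CPM with 0.5 added. The median over 36 members was 0.10, 0.24 and 0.23 in sgCEBPD 1, 2 and 4, and 0.37 in sgCEBPD 3, against -0.06, -0.05, -0.04 and 0.14 in sgControl 1 to 4. The groups overlapped, because sgControl 4 lay above sgCEBPD 1. Over all tested genes the same median was furthest from 0 in sgCEBPD 3, at -0.02.

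Controls were not alike in these genes. The library sgControl 4 held the highest control value in 28 of 36 members, where it did so in 25.8% of all tested genes, and in 12 of 12 synthetases. In CHAC1 and DDIT4, for example, it stood at 6.15 and 41.8 CPM, against 3.32 to 4.26 CPM and 20.4 to 27.9 CPM in the other controls. Across the 4 controls the coefficient of variation of a member ran from 3.16% (LARS1) to 36.0% (DDIT4), with a median of 8.39%.

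**Figure D2:**
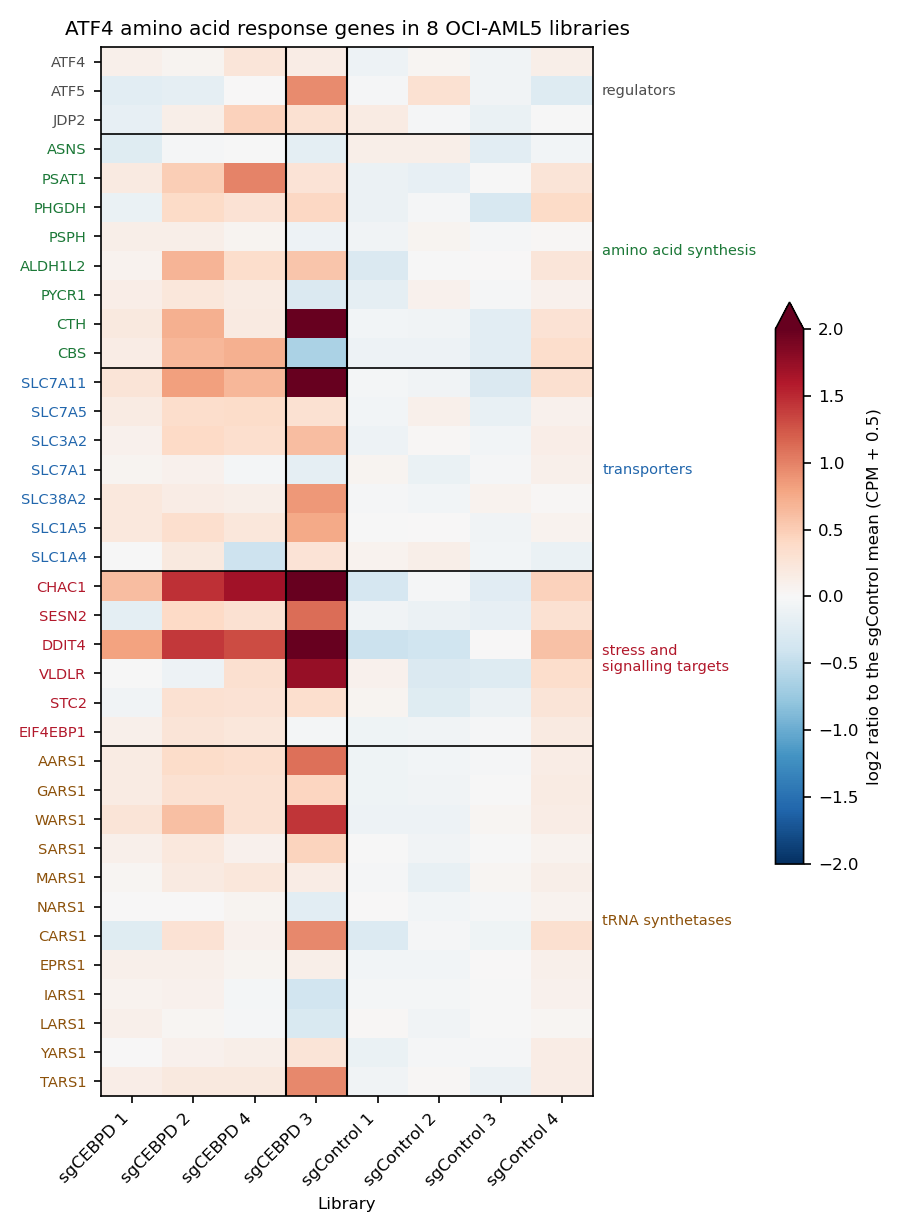
Log2 ratio of each member's CPM (0.5 added) to the sgControl mean, in each of the 8 libraries (columns, sgCEBPD 3 between black lines) and 36 members (rows, grouped by role); the colour scale stops at 2. Reds in sgCEBPD 1, 2 and 4 are mostly pale and are deepest for CHAC1 and DDIT4 in sgCEBPD 2 and 4. The library sgCEBPD 3 has both the strongest reds and several blues, and sgControl 4 is the reddest control.

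With all 8 libraries, 0 of 36 members passed edgeR's test at an adjusted p under 0.05, where 0.0795% of all tested genes passed (0.00723% higher and 0.0723% lower). At an unadjusted p under 0.05, 13 members were higher and 0 lower, against 6.56% and 4.83% of all tested genes. The log2 fold change was positive in 31 members, where 50.04% of all tested genes were positive, and the median was 0.275 against 0.00 over all tested genes. In 9 members every sgCEBPD library lay above every control, where 4.96% of all tested genes did so, and in 0 members every one lay below (4.62%). DESeq2 called 4 members (CHAC1, DDIT4, SLC7A5 and GARS1, all higher) and limma-voom called 0. Of all the genes each tested, DESeq2 called 2.05% and limma-voom 0.0939%, in either direction.

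Without sgCEBPD 3, 3 members rose and 0 fell, where 0.705% of 14047 tested genes rose and 1.31% fell (2.01% together). Those 3 were CHAC1, SLC1A5 and AARS1. The log2 fold change was positive in 33 of 36 members, where 50.29% of all tested genes were positive, with a median of 0.18 against 0.00. In 10 members sgCEBPD 1, 2 and 4 all lay above every control (6.89% of all tested genes), and in 0 they all lay below (7.50%). At an unadjusted p under 0.05, 19 members were higher and 0 lower, against 7.30% and 8.16% of all tested genes. The calls depended on single libraries. The number of members called was 0 without sgCEBPD 2, without sgControl 1 or without sgControl 3, and 1 (SLC1A5) without sgCEBPD 4 or without sgControl 2. It was 3 without sgCEBPD 1 (CHAC1, AARS1 and SLC3A2) and 5 without sgControl 4 (CHAC1, SLC1A5, AARS1, GARS1 and DDIT4). DESeq2 called 8 and limma-voom 1, where they called 4.24% and 1.73% of all the genes each tested, in either direction.

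**Figure D3:**
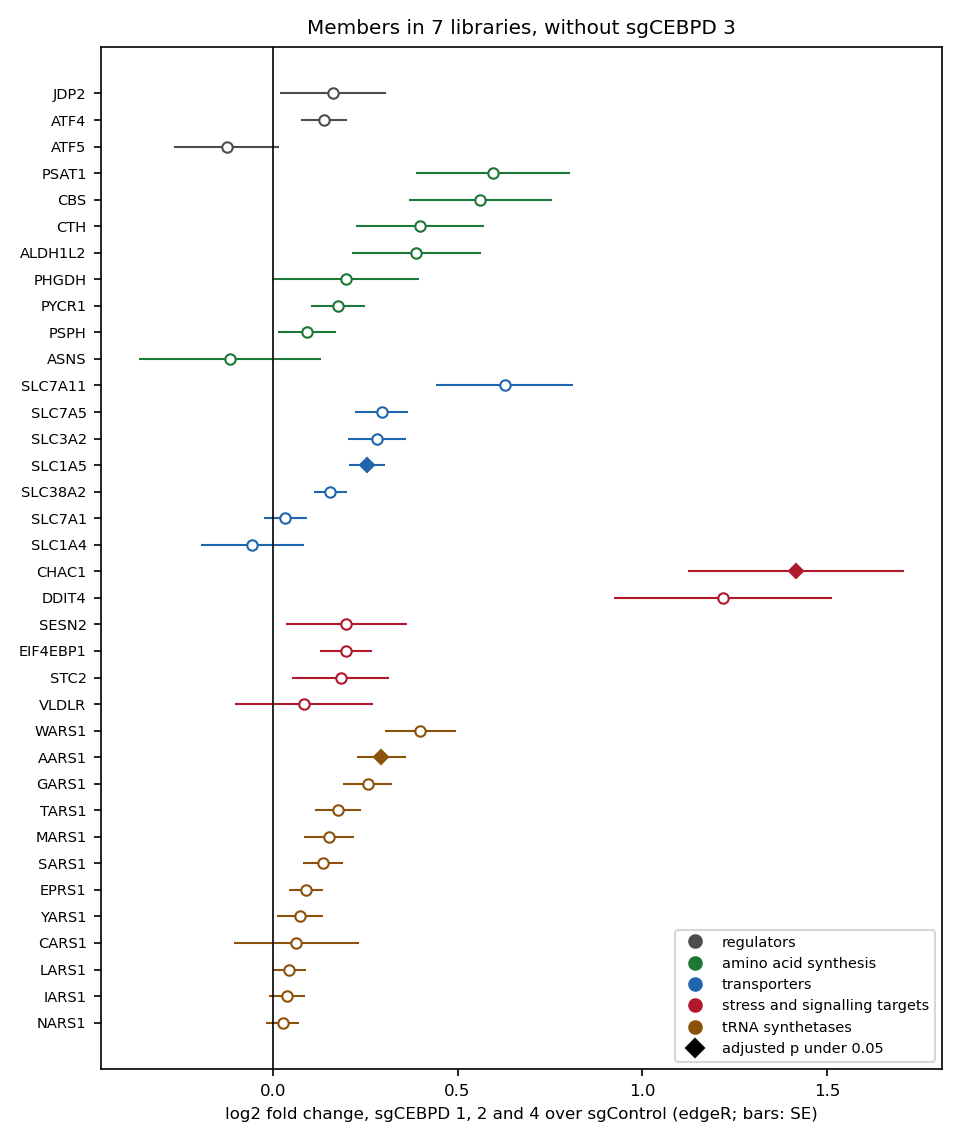
Log2 fold change of sgCEBPD 1, 2 and 4 over the 4 controls for each of 36 members (x axis, bars are SE from edgeR), grouped by role; filled diamonds passed at an adjusted p under 0.05. CHAC1 at 1.42 and DDIT4 at 1.22 lie far to the right of the other members, ASNS, ATF5 and SLC1A4 lie left of 0, and only CHAC1, SLC1A5 and AARS1 are filled.

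Among the regulators, ATF4 itself differed little. It had 649.7, 634 and 722 CPM in sgCEBPD 1, 2 and 4 and 670.4 CPM in sgCEBPD 3, against 568, 624, 581 and 658 CPM in the controls. The groups overlapped. The log2 fold change was 0.14 in both comparisons (adjusted p = 0.467 with 8 libraries and 0.314 without sgCEBPD 3, edgeR). Per kilobase of merged exons, ATF4 had the highest control level of the 36 members, at 242 CPM per kb.

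ATF5, a relative of ATF4 that is likewise controlled at translation, was at 12.4, 12.7 and 14.6 CPM in sgCEBPD 1, 2 and 4, within the control range of 12.02 to 17.9 CPM, and at 28.2 CPM in sgCEBPD 3. Its exons overlap NUP62 on the opposite strand, which stood between 130.2 and 172 CPM, and without a stated strand setting reads of the pair cannot be told apart. JDP2, which represses AP-1 targets, had 49.5, 60.2 and 77.2 CPM in sgCEBPD 1, 2 and 4 and 68.8 CPM in sgCEBPD 3, against 62.2, 54.6, 50.9 and 55.2 CPM in controls. Its groups overlapped too (log2 fold change 0.16 without sgCEBPD 3, adjusted p = 0.670 in edgeR).

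The 2 members with the highest log2 fold changes, CHAC1 and DDIT4, were stress and signalling targets. CHAC1, which breaks down glutathione, had 6.92, 12.9 and 14.9 CPM in sgCEBPD 1, 2 and 4 and 23.0 CPM in sgCEBPD 3, against 3.32, 4.26, 3.63 and 6.15 CPM in controls. All sgCEBPD libraries were above all controls, by a narrow margin between sgCEBPD 1 and sgControl 4. CHAC1 rose to 11.6 ± 4.16 CPM in sgCEBPD 1, 2 and 4 (SD, n = 3), against 4.34 ± 1.27 CPM in controls (SD, n = 4), which edgeR put at 1.42 on the log2 scale (SE 0.29, adjusted p = 0.0471). With all 8 libraries the log2 fold change was 1.73 (SE 0.36, adjusted p = 0.185). The gene lies on chromosome 15 from 40952962 to 40956519 on the plus strand (GRCh38) and was counted with 38 to 234 reads a library.

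DDIT4, an inhibitor of mTORC1, had 49.0, 74.9 and 69.5 CPM in sgCEBPD 1, 2 and 4 and 181 CPM in sgCEBPD 3, against 20.4, 20.8, 27.9 and 41.8 CPM in controls. The groups did not overlap, yet the spread of the controls was wide. Without sgCEBPD 3, edgeR gave a log2 difference of 1.22 (SE 0.29, adjusted p = 0.128), and with 8 libraries 1.76 (SE 0.43, adjusted p = 0.249). DESeq2 called it in both (adjusted p = 0.00733 and 0.00192). With sgControl 4 left out, edgeR called it without sgCEBPD 3 (adjusted p = 0.0349) but not with sgCEBPD 3 kept (adjusted p = 0.396).

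SESN2, a leucine-sensing inhibitor of mTORC1, was at 27.2, 41.3 and 38.5 CPM in sgCEBPD 1, 2 and 4 and 68.4 CPM in sgCEBPD 3, against 27.8 to 38.4 CPM in controls. VLDLR, a lipoprotein receptor, had 9.92, 9.27 and 12.6 CPM in sgCEBPD 1, 2 and 4 and 34.6 CPM in sgCEBPD 3, against 10.7, 8.14, 8.27 and 12.9 CPM in controls. Apart from sgCEBPD 3, values of both genes overlapped between the groups. STC2, a secreted glycoprotein, and EIF4EBP1, a repressor of translation initiation, had log2 fold changes of 0.18 and 0.20 without sgCEBPD 3 (adjusted p = 0.572 and 0.212 in edgeR).

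Of the 7 transporters, 1 passed the test without sgCEBPD 3 (SLC1A5) and 6 had a positive log2 fold change. SLC1A5, a glutamine transporter, had 242, 264 and 245 CPM in sgCEBPD 1, 2 and 4 and 354 CPM in sgCEBPD 3, against 208, 210.5, 199.7 and 220.4 CPM in controls. No sgCEBPD library fell within the control range. SLC1A5 rose to 250.1 ± 12.01 CPM in sgCEBPD 1, 2 and 4 (SD, n = 3), against 209.7 ± 8.51 CPM in controls (SD, n = 4), which edgeR put at 0.25 on the log2 scale (SE 0.05, adjusted p = 0.0315). With 8 libraries it was 0.40 (SE 0.12, adjusted p = 0.327). The gene spans bases 46774883 to 46788594 of chromosome 19 (minus strand, GRCh38).

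SLC7A5, which imports leucine and other large neutral amino acids, had 614, 700.2 and 705 CPM in sgCEBPD 1, 2 and 4 and 678 CPM in sgCEBPD 3, against 527, 589.7, 496 and 582 CPM in controls. It did not overlap between groups, and sgCEBPD 3 was level with the other sgCEBPD libraries. The log2 fold change was 0.30 in both comparisons (adjusted p = 0.0779 without sgCEBPD 3 and 0.265 with 8 libraries, edgeR). SLC3A2, the heavy chain that SLC7A5 and SLC7A11 need at the membrane, was at 194 to 241 CPM in sgCEBPD 1, 2 and 4 and 279.8 CPM in sgCEBPD 3, against 169 to 199 CPM in controls (log2 fold change 0.28 without sgCEBPD 3, adjusted p = 0.122).

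SLC7A11, the cystine importer that feeds glutathione synthesis, had 8.79, 13.2 and 11.8 CPM in sgCEBPD 1, 2 and 4 and 59.3 CPM in sgCEBPD 3, against 7.08, 6.98, 5.90 and 9.27 CPM in controls. Here sgCEBPD 3 was the far point, 5.26-fold above the mean of the other sgCEBPD libraries. Without it edgeR gave a log2 difference of 0.63 (SE 0.19, adjusted p = 0.132), with sgControl 4 above sgCEBPD 1. SLC38A2, a sodium-coupled neutral carrier, was at 326 to 349.8 CPM in sgCEBPD 1, 2 and 4 and 552 CPM in sgCEBPD 3, against 289 to 315 CPM in controls. SLC7A1, for cationic amino acids, and SLC1A4, for alanine, serine and cysteine, had log2 fold changes of 0.03 and -0.06 without sgCEBPD 3.

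Of the 8 enzymes of amino acid synthesis, 0 passed edgeR's test in either comparison. Without sgCEBPD 3, 7 had a positive log2 fold change, with a median of 0.29, where 50.29% of all tested genes were positive. At an unadjusted p under 0.05, 4 were higher and 0 lower without sgCEBPD 3 (7.30% and 8.16% of all tested genes). PSAT1, the aminotransferase of serine synthesis, had 165, 205.0 and 289 CPM in sgCEBPD 1, 2 and 4 and 175 CPM in sgCEBPD 3, against 134, 130.2, 144 and 174 CPM in controls. The high value of sgCEBPD 4 widened the spread, and sgControl 4 overlapped sgCEBPD 1. Without sgCEBPD 3, edgeR gave a log2 difference of 0.60 (SE 0.21, adjusted p = 0.259), and 0.35 for PSAT1 with sgCEBPD 4 left out as well. PHGDH and PSPH, the other enzymes of that pathway, had log2 fold changes of 0.20 and 0.09.

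CBS, which condenses homocysteine with serine, had 7.86, 11.4 and 11.8 CPM in sgCEBPD 1, 2 and 4 and 4.32 CPM in sgCEBPD 3, against 6.47, 6.49, 5.996 and 9.09 CPM in controls. The library sgCEBPD 3 was the lowest of all, below every control, and of the other sgCEBPD libraries sgCEBPD 1 lay below sgControl 4 and both others above every control (log2 fold change 0.56 without sgCEBPD 3, SE 0.19, adjusted p = 0.190 in edgeR). CBSL, a near-identical copy with its own row, stood at 10.9, 13.1 and 13.8 CPM in sgCEBPD 1, 2 and 4, and at 5.01 CPM in sgCEBPD 3, against 9.72 to 14.7 CPM in controls. The CBS value is uncertain, since no source used here says how reads were split between both copies.

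CTH, the next enzyme after CBS on the path to cysteine, went the other way in sgCEBPD 3. It had 11.04, 16.1 and 10.97 CPM in sgCEBPD 1, 2 and 4 and 40.0 CPM in sgCEBPD 3, against 9.27, 9.11, 8.27 and 11.8 CPM in controls. Leaving out sgCEBPD 3, edgeR gave a log2 difference of 0.40 (SE 0.17, adjusted p = 0.303), and 0.20 for CTH with sgCEBPD 2 left out as well.

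PYCR1, the last step of proline synthesis, had 70.0, 74.8 and 72.0 CPM in sgCEBPD 1, 2 and 4 and 52.1 CPM in sgCEBPD 3, against 56.3, 68.3, 63.3 and 68.1 CPM in controls. It was the 1 member whose groups separated only once sgCEBPD 3 was left out (log2 fold change 0.18, adjusted p = 0.276 in edgeR). ALDH1L2, a mitochondrial folate enzyme, was at 73.0 to 112 CPM in sgCEBPD 1, 2 and 4 and at 102.6 CPM in sgCEBPD 3, against 56.9 to 82.8 CPM in controls.

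ASNS, the asparagine synthetase and a standard readout of ATF4, was almost silent. It had 1.31, 1.61 and 1.64 CPM in sgCEBPD 1, 2 and 4 and 1.38 CPM in sgCEBPD 3, against 1.84, 1.84, 1.36 and 1.56 CPM in controls. That corresponded to 14 to 21 reads a library, and at this depth a small difference was not detectable (log2 fold change -0.12 without sgCEBPD 3, SE 0.25, adjusted p = 0.889 in edgeR). Per kilobase of merged exons it had the lowest control level of the 36 members, at 0.370 CPM per kb, under SLC7A11 at 0.758. ASNS falls outside the rule for named genes and was singled out after its values were seen.

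**Figure D4:**
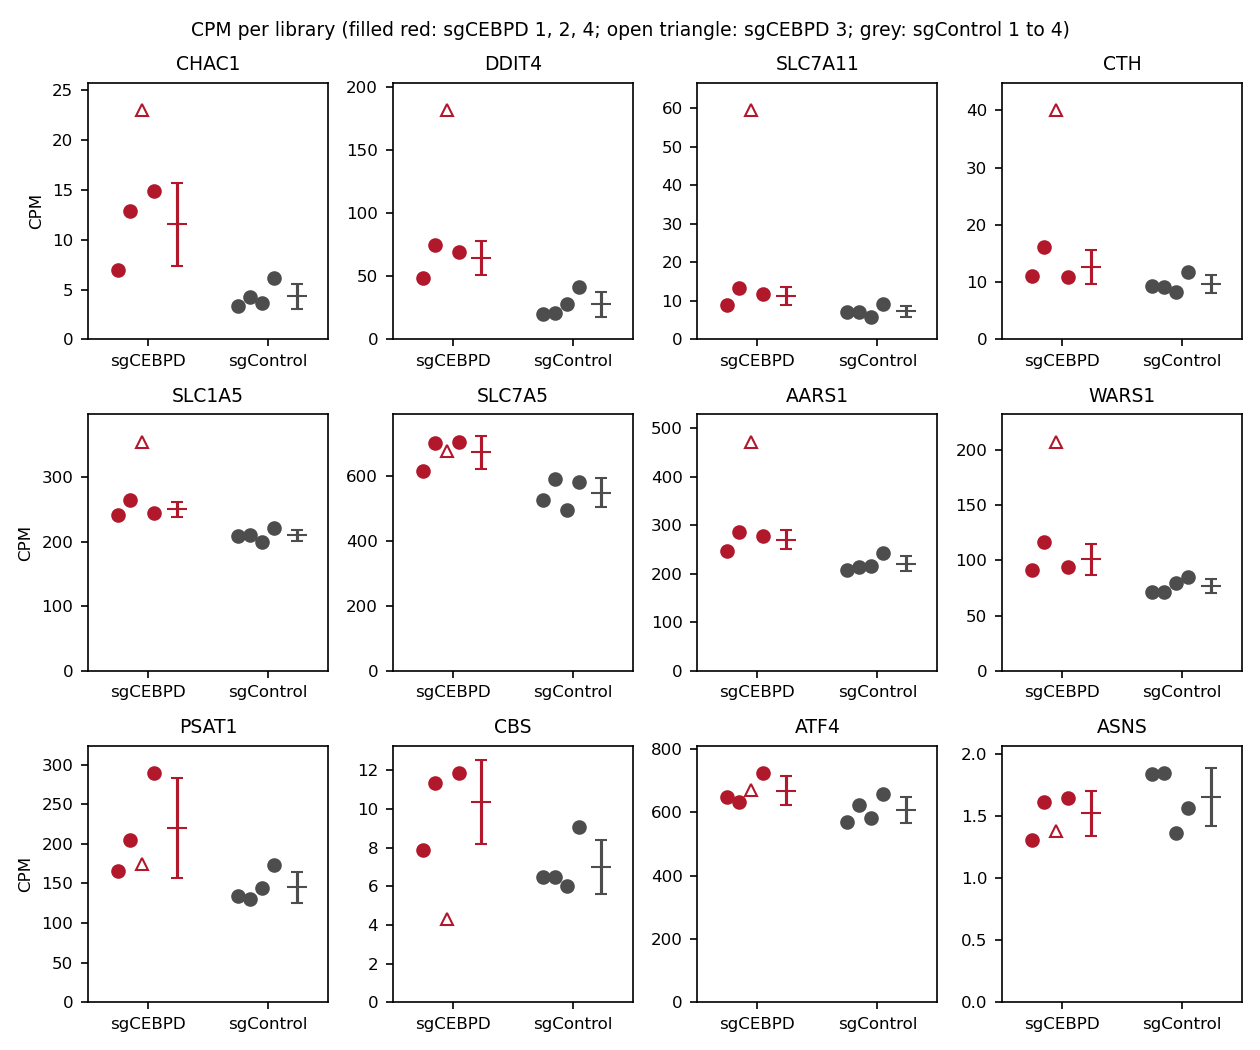
CPM of 12 members in each library (y axes start at 0), with sgCEBPD 1, 2 and 4 as filled red circles, sgCEBPD 3 as an open triangle and sgControl 1 to 4 as grey circles; crosses with bars are the mean and SD of sgCEBPD 1, 2 and 4 and of the controls. The triangle is far above the rest in SLC7A11 (59.3 CPM), CTH (40.0 CPM) and DDIT4 (181 CPM), within the range of sgCEBPD 1, 2 and 4 and above every control in SLC7A5 and ATF4, and below all other libraries in CBS (4.32 CPM).

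The 12 cytosolic tRNA synthetases, which join amino acids to their tRNAs, all had positive log2 fold changes without sgCEBPD 3, from 0.03 (NARS1) to 0.40 (WARS1), with a median of 0.11, where 50.29% of all tested genes were positive. With 8 libraries 9 of the 12 were positive, and IARS1, LARS1 and NARS1 had log2 fold changes of -0.06, -0.04 and -0.03. AARS1, for alanine, had 248, 286 and 278 CPM in sgCEBPD 1, 2 and 4 and 472 CPM in sgCEBPD 3, against 209, 214, 217 and 244 CPM in controls. Every sgCEBPD library was above every control, sgCEBPD 1 only just above sgControl 4. AARS1 rose to 270.5 ± 19.8 CPM in sgCEBPD 1, 2 and 4 (SD, n = 3), against 221 ± 15.7 CPM in controls (SD, n = 4), which edgeR put at 0.29 on the log2 scale (SE 0.07, adjusted p = 0.0495). With 8 libraries it was 0.54 (SE 0.19, adjusted p = 0.384). The gene spans bases 70252295 to 70289543 of chromosome 16 (minus strand, GRCh38).

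WARS1, for tryptophan, which interferon-gamma also induces, had 91.7, 117 and 94.4 CPM in sgCEBPD 1, 2 and 4 and 207 CPM in sgCEBPD 3, against 71.2, 71.4, 79.1 and 84.8 CPM in controls. The groups did not overlap (log2 fold change 0.40 without sgCEBPD 3, SE 0.10, adjusted p = 0.0779 in edgeR). GARS1, for glycine, was at 170.5 to 188 CPM in sgCEBPD 1, 2 and 4 and 205 CPM in sgCEBPD 3, against 143 to 170.2 CPM in controls (adjusted p = 0.0845). SARS1, for serine, was at 99.5 to 109 CPM in sgCEBPD 1, 2 and 4 and 128 CPM in sgCEBPD 3, against 89.0 to 98.6 CPM in controls (adjusted p = 0.258), also with no overlap.

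In IARS1, for isoleucine, the library sgCEBPD 3 was low. It had 397, 401 and 368 CPM in sgCEBPD 1, 2 and 4 and 292 CPM in sgCEBPD 3, against 369.6, 367, 376 and 403 CPM in controls, with a log2 fold change of 0.04 without sgCEBPD 3. MARS1, for methionine, had a log2 fold change of 0.15 (adjusted p = 0.313), and its exons overlap DDIT3 and ARHGAP9 on the opposite strand. The other members of the class, TARS1, EPRS1, YARS1, CARS1, LARS1 and NARS1, had log2 fold changes of 0.18, 0.09, 0.07, 0.06, 0.04 and 0.03. Among the synthetases with the narrow core printed above, AARS1 passed and IARS1, NARS1, CARS1 and TARS1 did not.

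The members split widely in sgCEBPD 3. A single library has no replicate, so these values carry no test. It lay above all the other 7 libraries in 21 of 36 members and below all of them in 7, where 34.8% and 34.9% of all tested genes did so. Over the mean of sgCEBPD 1, 2 and 4, with 0.5 CPM added, it was more than 2-fold higher in 6 members and more than 2-fold lower in 1, against 6.97% and 6.12% of all tested genes. The median log2 ratio of members was 0.17, against -0.01 over all tested genes.

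The 6 were SLC7A11 (5.26-fold on plain CPM), VLDLR (3.26), CTH (3.15), DDIT4 (2.81), ATF5 (2.13) and WARS1 (2.05), and the next was CHAC1 (1.99). The 1 below was CBS, at 0.418 of the mean of sgCEBPD 1, 2 and 4, and the next was PYCR1, at 0.720. By role, sgCEBPD 3 was above all other libraries in 5 of 6 stress targets, 5 of 7 transporters, 8 of 12 synthetases, 2 of 8 synthesis enzymes and 1 of 3 regulators. It was below all others in 3 synthesis enzymes (PSPH, PYCR1 and CBS), 3 synthetases (IARS1, LARS1 and NARS1) and SLC7A1. The synthetases furthest above were WARS1, CARS1 (83.8 CPM in sgCEBPD 3 against 35.3 to 54.0 CPM elsewhere), AARS1 and TARS1 (409.6 CPM against 193 to 242 CPM).

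**Figure D5:**
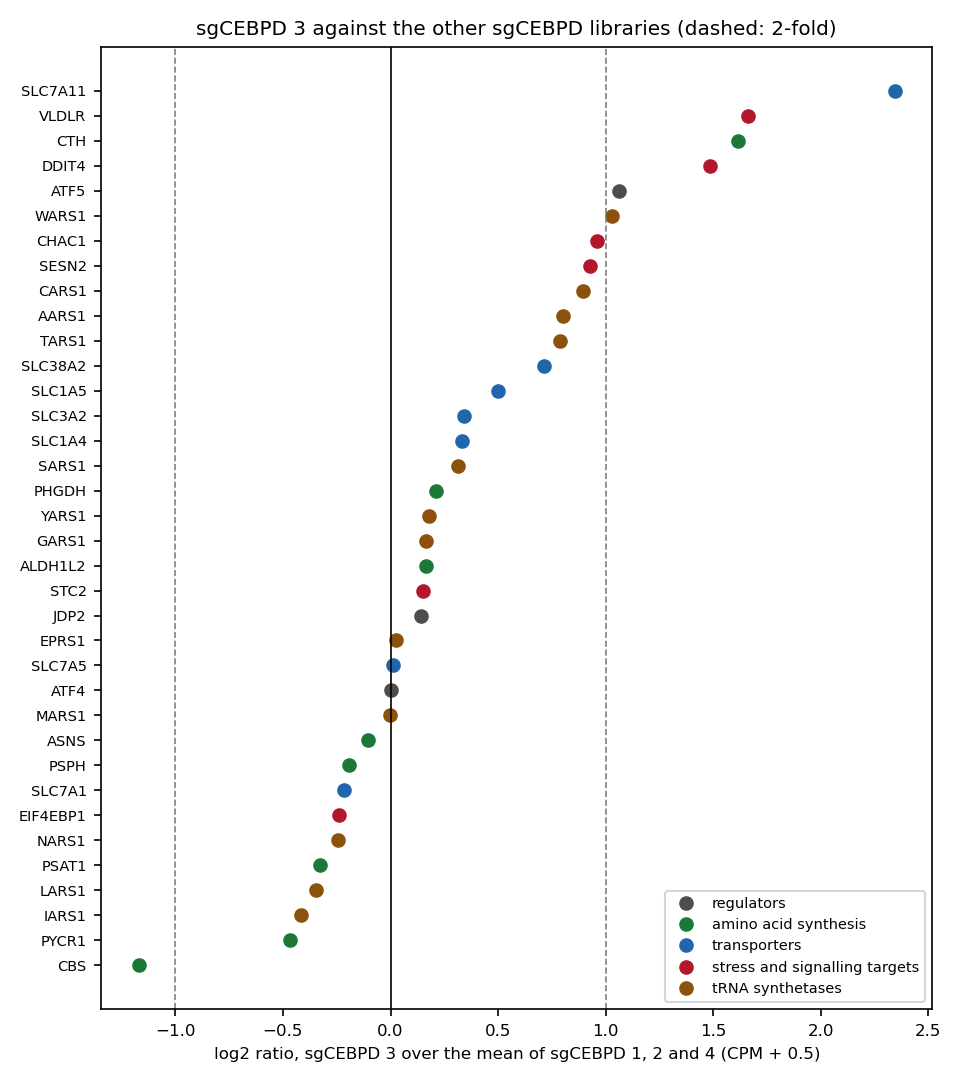
Log2 ratio of sgCEBPD 3 to the mean of sgCEBPD 1, 2 and 4 (CPM with 0.5 added) for each of 36 members, coloured by role, with dashed lines at 2-fold. SLC7A11 is at 2.34 and CBS at -1.17, ATF4 is at 0.00, and synthetases run from WARS1 at 1.03 to IARS1 at -0.42.

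Other genes of the pathway were taken from lists fixed by name. Among 12 eIF2 kinases, subunits and feedback genes, 0 passed edgeR's test in either comparison, and at an unadjusted p under 0.05 3 were higher and 0 lower without sgCEBPD 3 (7.30% and 8.16% of all tested genes). With 8 libraries 2 were higher and 0 lower (6.56% and 4.83%). PPP1R15A, the regulatory subunit that returns eIF2 to its unphosphorylated state, had 36.95, 45.9 and 36.5 CPM in sgCEBPD 1, 2 and 4 and 190.6 CPM in sgCEBPD 3, against 28.2, 30.2, 30.1 and 34.3 CPM in controls (log2 fold change 0.37 without sgCEBPD 3, adjusted p = 0.0926). DDIT3 (CHOP) was at 34.4 CPM in sgCEBPD 3, 3.09 to 5.36 CPM in sgCEBPD 1, 2 and 4 and 3.72 to 4.50 CPM in controls. TRIB3, which dampens ATF4, was likewise at 148 CPM in sgCEBPD 3, 28.3 to 35.8 CPM in sgCEBPD 1, 2 and 4 and 28.1 to 33.9 CPM in controls. Without sgCEBPD 3 both had log2 fold changes of 0.01 (adjusted p = 0.990 and 0.976). ATF3 and EIF2AK4 (the kinase GCN2, which senses uncharged tRNA) had log2 fold changes of 0.32 and 0.12 without sgCEBPD 3 (adjusted p = 0.307 and 0.313).

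Of 20 other ATF4 targets and one-carbon genes, 16 were tested without sgCEBPD 3, with 2 higher and 0 lower past the threshold, where 0.705% and 1.31% of all tested genes were. MTHFD2, an enzyme of mitochondrial folate metabolism, had 155, 178 and 171 CPM in sgCEBPD 1, 2 and 4 and 227 CPM in sgCEBPD 3, against 129, 134, 131 and 138 CPM in controls (log2 difference 0.34 with SE 0.05, and adjusted p = 0.0152 by edgeR). HERPUD1, a gene of endoplasmic reticulum stress, had 71.3, 95.3 and 63.7 CPM in sgCEBPD 1, 2 and 4 and 227 CPM in sgCEBPD 3, against 44.0 to 51.8 CPM in controls (log2 fold change 0.71, adjusted p = 0.0423). GPT2, which makes alanine, had a log2 fold change of 0.52 (adjusted p = 0.166). At an unadjusted p under 0.05, 4 were higher and 1 lower without sgCEBPD 3 (7.30% and 8.16% of all tested genes), the lower one being VEGFA, an angiogenic growth factor, with a log2 fold change of -0.17. With 8 libraries 15 were tested and 0 passed edgeR's test, with 4 higher and 0 lower at that level (6.56% and 4.83% of all tested genes).

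Synthetases outside the member list were mostly low in sgCEBPD 3. Of 11 other cytosolic synthetases and scaffold proteins, sgCEBPD 3 was below all other libraries in 9 and above in 1, and of 16 mitochondrial synthetases with a row it was below in 12 and above in 2, where 34.9% of all tested genes were below and 34.8% above. Without sgCEBPD 3, the median log2 fold changes of these lists were -0.01 and 0.03, against 0.11 for the 12 member synthetases, and 0 genes of either passed edgeR's test in either comparison. At an unadjusted p under 0.05 without sgCEBPD 3, 2 of the cytosolic list were lower (FARSA, for phenylalanine, and AIMP1, a scaffold protein; log2 fold changes -0.14 and -0.15) and 1 mitochondrial gene was higher (HARS2, for histidine, 0.19). With 8 libraries 1 cytosolic gene was lower and 1 mitochondrial gene higher at that level. Over all tested genes, 7.30% were higher and 8.16% lower at that level without sgCEBPD 3, and 6.56% and 4.83% with 8 libraries. The difference between these lists and the members was not tested.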

How the data were processed

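The authors deposited raw read counts per gene, with 1 column per library. The submitters' processing notes name HISAT2, FastQC and DESeq2 and the build hg38, but give neither versions nor what each did. Which program counted reads, against which annotation and with what strand setting, is not given in the sources used here. Columns were matched by the library names in the labels, and 0 other columns of samples were present. Symbols repeated in 116 rows, of which none was a member.

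Counts were filtered with filterByExpr and tested with edgeR 4.0.16 in R 4.3.3 (TMM, robust quasi-likelihood, group only, Benjamini-Hochberg over all genes tested, threshold 0.05), for all 8 libraries and for 7 without sgCEBPD 3. A positive log2 fold change means higher in sgCEBPD, and its SE was taken as its size over the square root of edgeR's F. CPM use the TMM factors of all 8 libraries. DESeq2 1.42.0, limma-voom 3.58.1, other scalings and filters, a threshold of 0.01, the guide number as a block and each library left out were alternatives. Members, lists and the comparison without sgCEBPD 3 were chosen with earlier results of these data known. Libraries of 1 group differed by more than sampling noise. Positions and merged exon lengths are from GENCODE 29 (GRCh38), and promoters from RefSeq.

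Values in every library are given for ATF4, members past the threshold, the 2 members of each role with the lowest p without sgCEBPD 3, and the 6 highest and 3 lowest in sgCEBPD 3 among members with a mean of at least 2 CPM. From each other list, genes past the threshold and up to 3 with the lowest p are named. KARS1, EARS2 and FARS2, which that rule also took, had adjusted p = 0.487, 0.464 and 0.517 in edgeR without sgCEBPD 3. Other genes were named after their values were seen. Some results are not reported here.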

Additional observations from a re-analysis of the deposited data

Results flagged for a closer look

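In 9 of 74 groups of 4 values (36 members and CEBPD, in each group), 1 library lay far outside the range of its group's other libraries. Chance flags about 1 in 20 such groups, which here would be 3.7. In 6 of the 9 that library was sgCEBPD 3, and it was high each time. Over all tested genes sgCEBPD 3 lay above all other 7 libraries in 34.8% and below all of them in 34.9%. The share of all genes flagged was not computed, so the number of flags is not a result about the members. TARS1 was at 410 CPM there against 230 to 242 CPM in the other sgCEBPD libraries, SLC38A2 at 552 CPM against 326 to 350 CPM, and AARS1 at 472 CPM against 248 to 286 CPM. SLC7A11 was at 59.3 CPM against 8.79 to 13.2 CPM, VLDLR at 34.6 CPM against 9.27 to 12.6 CPM, and ATF5 at 28.2 CPM against 12.4 to 14.6 CPM. STC2 was low in sgCEBPD 1, at 44.1 CPM against 56.5 to 58.3 CPM in the other sgCEBPD libraries. Among the controls, sgControl 4 was high for CBS, at 9.09 CPM against 5.996 to 6.49 CPM, and for SESN2, at 38.4 CPM against 27.8 to 29.5 CPM. The part of the monocyte, macrophage and T cell markers that were high in sgCEBPD 3 was not tested.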

How the results depend on the processing

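With 8 libraries, 0 members were called by edgeR (13 at an unadjusted p under 0.05), 4 by DESeq2 and 0 to 3 with 1 library left out. Over all genes the count was 11, with 301 by DESeq2, 20 with no filter, 1 at an adjusted p under 0.01 and 0 to 283 with 1 library left out. Without sgCEBPD 3, the count of members was 3, with 8 by DESeq2, 1 by limma-voom, 0 at an adjusted p under 0.01 (0.0315 was the lowest, edgeR) and 0 to 5 with 1 library left out. Over all genes it was 283, with 609 by DESeq2, 40 at the stricter threshold and 66 to 312 with 1 library left out. Why the tools and libraries differ was not tested. Leaving out libraries moved the log2 fold change of ATF5 between -0.12 and 0.36 and of IARS1 between -0.10 and 0.0376 with 8 libraries, and of JDP2 between -0.0234 and 0.31 and of VLDLR between -0.0616 and 0.23 without sgCEBPD 3. Without sgCEBPD 3, some values not past the threshold moved by over 1.5 times without changing sign. They were CTH (0.20 without sgCEBPD 2), PSAT1 (0.35 without sgCEBPD 4) and ATF4 (0.08 without sgCEBPD 4), beside low values of ATF5 (-0.20 to -0.0065) and IARS1 (0.02 to 0.07). With 8 libraries, leaving out 1 library moved more values that far without changing sign. Ranges were 0.63 to 1.95 for SLC7A11, 0.08 to 0.92 for VLDLR, 0.40 to 1.22 for CTH and 0.40 to 0.87 for WARS1. For AARS1, CBS and PSAT1 they were 0.29 to 0.65, 0.16 to 0.56 and 0.32 to 0.62. For SLC1A5, JDP2 and PYCR1 they were 0.25 to 0.46, 0.09 to 0.31 and 0.01 to 0.18. AARS1 was called in 6 of 15 alternatives without sgCEBPD 3, CHAC1 in 8 and SLC1A5 in 9. CHAC1 had a log2 fold change of 1.19 to 1.68 in all of them.

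The guide number as a replicate block gave 1 call over all genes and 0 members with 8 libraries, and 352 and 4 (CHAC1, AARS1, SLC7A5 and PSAT1, not SLC1A5) without sgCEBPD 3. Deviations of same-numbered libraries from their group means correlated at 0.04, 0.06, -0.09 and -0.04 across genes. The sgCEBPD mean included sgCEBPD 3, which stood apart, so these values cannot decide whether the number pairs libraries. The cause of the shifts with the block was not tested. Depth limits ASNS most, at 14 to 21 reads a library.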
